A study of Homo sapiens with 16 samples.

Results

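The 10 genes CGAS, STING1, TBK1, IKBKE, IRF3, IFI16, TREX1, SAMHD1, AIM2 and ENPP1 encode the cytosolic DNA sensing pathway and its partners. They were taken by name from count tables of 60606 gene names, and 9 of the 10 had any count. Polyadenylated RNA had been sequenced from 16 libraries of 2 established human lines of clear cell renal carcinoma, 786-O (12 libraries) and A498 (4 libraries), to compare cells with and without SETD2, the gene of a histone methyltransferase that kidney cancers often lose.

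The 786-O cells were SETD2 wild-type (WT) or SETD2 null, called KO in the sample titles. Each genotype received DMSO, the vehicle, or 100 nM A1331852, an inhibitor of the anti-apoptotic protein BCL-XL, and was harvested after 72 h, with 3 libraries in each of these 4 groups. The A498 cells received no treatment, with a labelled time of 72 h as well. Of these, 2 libraries were titled SETD2 deficient (genotype label SETD2 null) and 2 SETD2 add-back (genotype label SETD2 WT). How the knockout and the add-back were made, and whether any population was 1 clone, is not given in the sources used here, so SETD2 status and other differences between populations cannot be told apart. Nothing in the labels says that replicates were separate cultures, and the p-values therefore reflect variation among these libraries alone, part of which may be technical. The labels put replicates 1 and 2 of both DMSO groups in batch 2, replicate 3 of both in batch 1 together with every A1331852 library, and A498 in batch 3.

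In this pathway the enzyme cGAS binds double-stranded DNA in the cytosol and makes the second messenger cGAMP, which binds the adaptor STING in the endoplasmic reticulum. STING then moves to the Golgi and engages the kinases TBK1 and IKKε, and TBK1 phosphorylates the transcription factor IRF3, which enters the nucleus and switches on IFNB1 and other antiviral genes. IFI16 and AIM2 are further DNA sensors, TREX1 and SAMHD1 keep DNA and its building blocks low, and ENPP1 destroys cGAMP outside the cell.

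Promoter sequences are shown for IFI16 and SAMHD1, which rose together in KO cells under A1331852, and for IKBKE, which was lower in the libraries labelled SETD2 deficient. RefSeq promoters (GRCh38.p14, 300 bases from 250 before to 50 after a transcript start) were found for 7 of the 10 genes. CGAS, STING1 and IRF3 had no entry in the table used. In all, 3 motifs of the interferon response were searched on both strands: the IRF core AANNGAAA, the longer interferon-stimulated response element GAAANNGAAA, each match to which holds a match to the core, and the STAT site TTCNNNGAA. Capitals mark the IRF core, and each line gives the longest stretch before the start that lay in no annotated exon.
IFI16 chr1:159009657-159009891 plus strand: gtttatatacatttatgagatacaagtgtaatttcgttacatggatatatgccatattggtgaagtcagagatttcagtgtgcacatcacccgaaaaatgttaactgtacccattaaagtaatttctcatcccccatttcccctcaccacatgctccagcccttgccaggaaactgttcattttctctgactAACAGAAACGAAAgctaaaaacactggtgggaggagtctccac
IKBKE chr1:206470226-206470475 plus strand: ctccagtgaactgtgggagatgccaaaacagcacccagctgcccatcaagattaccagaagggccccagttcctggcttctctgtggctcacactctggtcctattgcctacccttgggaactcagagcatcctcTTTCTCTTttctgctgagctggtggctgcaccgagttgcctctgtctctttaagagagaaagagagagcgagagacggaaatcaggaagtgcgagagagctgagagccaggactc
SAMHD1 chr20:36951894-36951958 minus strand: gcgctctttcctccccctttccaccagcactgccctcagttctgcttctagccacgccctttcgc

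This IFI16 promoter held 2 overlapping matches to the core, at 58 and 53 bases before the start, and the promoter of its other RefSeq start held 1 match at 128 bases. The IKBKE promoter held 1 match on the opposite strand, at 115 bases before the start, and the AIM2 promoter held 1 at 190 bases, which was also a match to the longer element. No match to any of the 3 motifs lay in the windows of TREX1, SAMHD1, TBK1 or ENPP1, and none of the 7 genes had a match to the STAT site. The SAMHD1 window (36951659 to 36951958, minus strand) lay mostly within its annotated gene, which reached 36951893. Only the 65 bases shown lay upstream of the annotated gene, and sequence beyond them was not searched. Among all 34943 promoters of this length, 22.9% held the core, 3.57% the longer element and 7.66% the STAT site. CpG dinucleotides were few in the promoters of IFI16 (1 and 3), AIM2 (2), TREX1 (3) and IKBKE (5), and many in those of SAMHD1 (22), TBK1 (35) and ENPP1 (37).

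Total counts ran from 14172118 to 36037616 per library. SETD2 itself fell in KO cells, by 1.21 ± 0.18 on the log2 scale in DMSO (SE, adjusted p = 7.39e-04, edgeR) and by 0.65 ± 0.18 in A1331852 (adjusted p = 0.0168, edgeR), where the KO libraries held 29.4, 47.6 and 52.5 CPM. In A498 its transcript was 50.2 CPM in the deficient and 49.4 CPM in the add-back libraries, with a log2 change of 0.00 ± 0.17 (adjusted p = 0.991, edgeR), so that it gave no check of these labels. Of 8 renal carcinoma line markers, all were detected except CA9, which was at 0 in both 786-O WT groups. Their summed level was 4060 to 9410 CPM, the largest part of it VIM (2230 to 6190 CPM by group means). CA9 (at most 0.81 CPM) and NDUFA4L2 (at most 0.28 CPM) were near 0 in every group. Leukocyte markers summed to 0.972 to 4.31 CPM, and CD3E, MS4A1 and TYROBP were at or near 0. Endothelial markers summed to at most 0.426 CPM. The 5 fibroblast markers summed to 44.2 to 66.6 CPM in A498, most of it COL1A1 (44.8 CPM in add-back and 57.7 CPM in deficient libraries). In 786-O they summed to 9.07 to 14.5 CPM in DMSO, 9.19 to 13.6 CPM in WT A1331852 and 4.15 to 4.57 CPM in KO A1331852. The part of these differences in the results was not tested.

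Levels are given in CPM, which are counts relative to a library total scaled by TMM, in the order of replicates 1, 2 and 3. Replicates of 1 group have no order of their own, but in DMSO the last value is always the batch 1 library. Where groups are said not to overlap, the share of all genes for which this held was not computed. As each library is a bulk culture, a change in how many cells express a gene and a change in RNA per cell cannot be told apart.

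CGAS (chromosome 6, 73413515 to 73452297, GRCh38), the gene of the DNA-binding enzyme that starts the pathway, was detected in every library. Its level in 786-O was 20.0, 21.4 and 9.66 CPM in WT DMSO and 20.4, 21.9 and 16.2 CPM in KO DMSO. With A1331852 the values were 18.0, 16.7 and 15.2 CPM in WT and 28.1, 27.7 and 20.4 CPM in KO cells. All 3 KO libraries under A1331852 were above all 3 WT libraries, whereas the ranges in DMSO overlapped. The batch 1 library in DMSO was 0.467 times the mean of batch 2 in WT and 0.764 times in KO cells. In A498 the add-back libraries held 22.5 and 20.0 CPM and the deficient libraries 23.6 and 26.2 CPM. The order of group means was led by KO A1331852 (25.4 CPM) and A498 deficient (24.9 CPM), whose ranges overlapped, and closed with WT DMSO (17.0 CPM) and WT A1331852 (16.6 CPM), which overlapped too.

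IFI16 (chromosome 1, 158999968 to 159055155), which encodes a DNA sensor that works with cGAS and STING and is itself inducible by interferon, had the highest level per exon length of the 3 sensor genes in every group (9.77 to 24.1 CPM per kilobase by group means). It stood at 58.8, 49.0 and 103.1 CPM in WT DMSO and at 40.2, 41.1 and 73.9 CPM in KO DMSO. Under A1331852 the WT libraries held 93.9, 105.3 and 151.6 CPM and the KO libraries 109.5, 142.8 and 130.4 CPM. Every KO library under A1331852 was above every KO library in DMSO, and in DMSO the batch 1 library was 1.91 times the mean of batch 2 in WT and 1.82 times in KO cells. In A498, IFI16 stood at 72.6 and 69.1 CPM in the add-back and 107.8 and 119.8 CPM in the deficient libraries, with no overlap.

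AIM2 (chromosome 1, 159061599 to 159187843), the sensor that assembles the DNA-activated inflammasome, had 0 to 4 counts per library. Its 9 counts in WT DMSO compared with 1 in KO DMSO, 4 in WT A1331852, 5 in KO A1331852 and 1 in A498 deficient. The add-back libraries had 0 counts, which allows a level of up to 0.0866 CPM (3 counts over the group, counting error only). AIM2 was therefore near its detection floor throughout, and it was not tested in any comparison.

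STING1 (chromosome 5, 139475533 to 139482935), the gene of the adaptor STING, was at 58.4, 55.5 and 73.1 CPM in WT DMSO and at 59.3, 63.8 and 62.8 CPM in KO DMSO. A1331852-treated cells held 31.9, 56.7 and 60.4 CPM in WT and 28.8, 46.3 and 55.6 CPM in KO cells. Replicate 1 of both A1331852 groups was the lowest of its group, and all KO libraries under A1331852 were below all KO libraries in DMSO. The A498 add-back libraries held 31.7 and 32.8 CPM and the deficient libraries 43.5 and 37.4 CPM, which did not overlap. By group means, the 4 groups of 786-O ran from 62.3 CPM (WT DMSO) to 43.6 CPM (KO A1331852), each overlapping the next, with both A498 groups below them.

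TBK1 (chromosome 12, 64452090 to 64502114), the kinase that phosphorylates IRF3, was at 20.1, 16.6 and 30.9 CPM in WT DMSO and 21.4, 20.8 and 42.0 CPM in KO DMSO. After A1331852 it stood at 35.9, 32.7 and 29.4 CPM in WT and at 34.8, 38.1 and 34.2 CPM in KO cells. The batch 1 library was 1.69 times the mean of batch 2 in WT DMSO and 1.99 times in KO DMSO, so that the A1331852 libraries, all of batch 1, lay near the DMSO libraries of their own batch. In A498 the levels were 41.1 and 39.5 CPM (add-back) and 36.7 and 45.7 CPM (deficient), which overlapped.

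IKBKE (chromosome 1, 206470476 to 206496889), which encodes the related kinase IKKε, was at 34.3, 33.6 and 21.5 CPM in WT DMSO and 22.1, 21.8 and 14.4 CPM in KO DMSO. The A1331852 libraries held 16.8, 19.1 and 12 CPM in WT and 15.1, 15.6 and 9.29 CPM in KO cells. Within each batch of the DMSO libraries every KO value was below every WT value. In A498 it stood at 25.1 and 27.9 CPM in the add-back and 18.9 and 21.0 CPM in the deficient libraries, again with the lower values in the libraries without SETD2 by label.

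IRF3 (chromosome 19, 49659569 to 49665875), the transcription factor of the pathway, was at 96.7, 103.6 and 56.8 CPM in WT DMSO and at 89.0, 91.1 and 65.1 CPM in KO DMSO. Under A1331852 it was at 69.3, 60.1 and 67.1 CPM in WT and at 85.1, 72.0 and 81.0 CPM in KO cells, with no overlap between the genotypes. In A498 it was at 61.2 and 60.3 CPM in the add-back and 75.9 and 58.8 CPM in the deficient libraries. Its group means ran from 60.7 CPM (A498 add-back) to 85.7 CPM (WT DMSO), each group overlapping the next in that order.

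SAMHD1 (chromosome 20, 36890229 to 36951893), whose product hydrolyses deoxynucleotides and which is known as an interferon-inducible gene, had the widest range of group means among the 8 tested genes, from 45.1 to 181 CPM. Its level was 104.6, 100.2 and 55.2 CPM in WT DMSO and 115.5, 120.3 and 85.2 CPM in KO DMSO. Under A1331852 it was 51.2, 66.8 and 51.3 CPM in WT but 130.1, 255.2 and 157.9 CPM in KO cells. The KO libraries under A1331852 were above every other library of either line. The batch 1 library in DMSO was 0.539 times the mean of batch 2 in WT and 0.723 times in KO cells. In A498 the add-back libraries held 42.0 and 48.1 CPM and the deficient libraries 54.3 and 56.5 CPM, without overlap.

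ENPP1 (chromosome 6, 131808016 to 131895155), the membrane enzyme that hydrolyses cGAMP outside the cell, was at 16.3, 18.5 and 21.2 CPM in WT DMSO and 22.2, 22.3 and 23.9 CPM in KO DMSO. Under A1331852 it was at 18.6, 15.8 and 15.7 CPM in WT and at 21.7, 21.1 and 16.9 CPM in KO cells. The genotypes did not overlap in DMSO and overlapped under A1331852. A498 held less, 8.50 and 9.70 CPM in the add-back and 9.60 and 11.4 CPM in the deficient libraries.

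**Figure D1:**
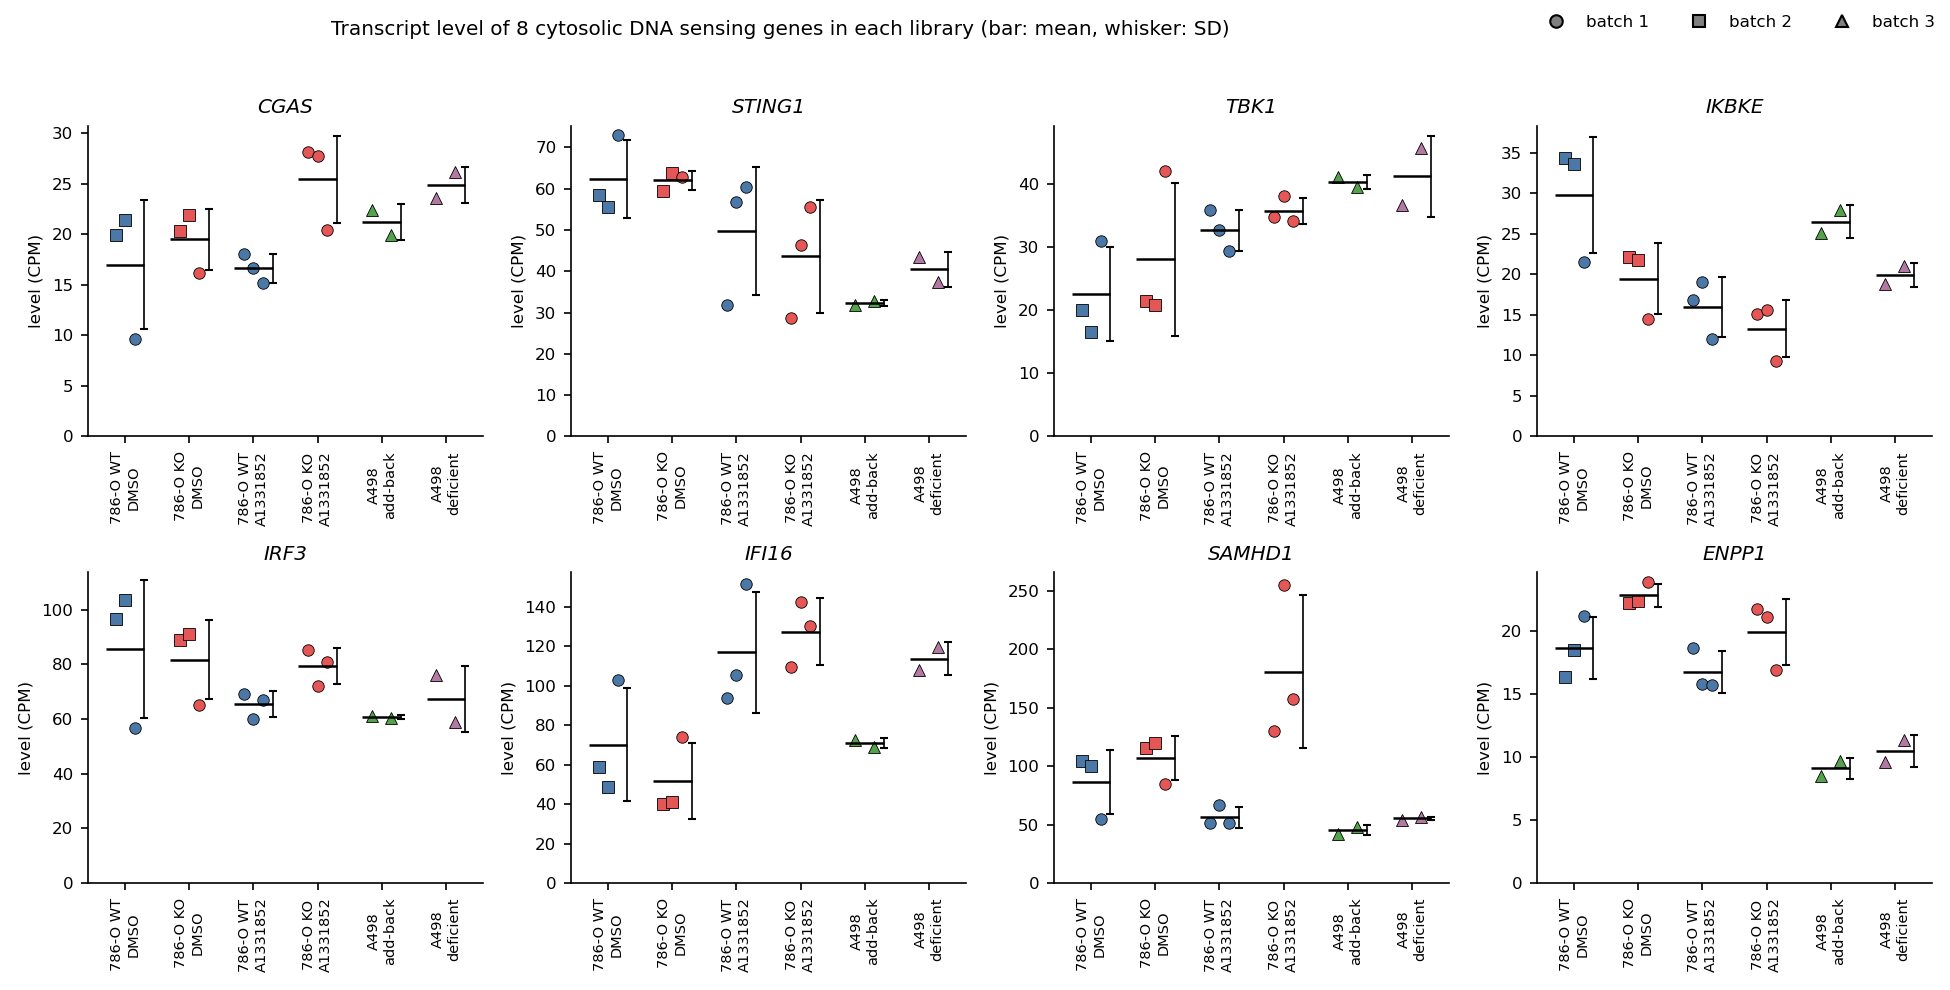
Level of each of the 8 tested genes in CPM (vertical axis, from 0) in each library (points; shape gives the batch) of the 6 groups, with the group mean (bar) and SD (whisker). SAMHD1 is highest in the 3 libraries of KO A1331852 (130.1 to 255.2 CPM), and TBK1 and IFI16 differ between batches within the DMSO groups.

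TREX1 (chromosome 3, 48465811 to 48467645), which encodes the exonuclease that clears DNA from the cytosol, was listed at 0 in all 16 libraries. In the annotation of the count tables all 1448 of its exon bases (100.0%) also belong to exons of ATRIP, a gene of the DNA damage response on the same strand (48446710 to 48467645). Per the file headers, the authors' counting gave no fragment to more than 1 gene, so a fragment inside TREX1 could be given to neither, and the 0 is not a measurement of TREX1 transcripts. The same holds for 1326 genes of the tables that have no exon base of their own on their strand, of which 1204 were at 0 in every library. ATRIP, which shares 26.7% of its exon bases with TREX1, had 106 to 469 counts per 786-O library and 174 to 223 per A498 library from the rest of its exons.

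**Figure D2:**
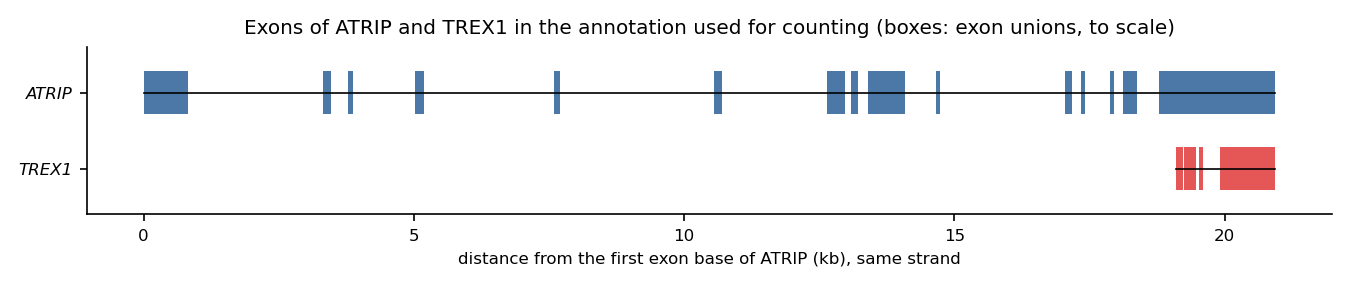
Exon blocks of ATRIP (upper row) and TREX1 (lower row) to scale, by distance in kilobases from the first exon base of ATRIP in the annotation used for counting. Every block of TREX1 lies under a block of ATRIP.

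To compare genes with each other, levels were divided by the summed exon length in the files (CPM per kilobase). On this scale IRF3 led in WT DMSO (22.6), KO DMSO (21.5) and A498 add-back (16), and IFI16 led in WT A1331852 (22.1), KO A1331852 (24.1) and A498 deficient (21.5). The ranges of these leading genes overlapped in WT DMSO, WT A1331852 and KO A1331852, so that their order there is not beyond the spread. CGAS stood at 3.98 to 6.09 CPM per kilobase and STING1 at 6.73 to 13 across group means. TBK1 (1.53 to 2.80) and ENPP1 (0.796 to 2.00) were the lowest of the 8 tested genes, with AIM2 far below (at most 0.0219). SAMHD1 held the sixth place in both A498 groups and the third in KO DMSO (9.88) and KO A1331852 (16.7), in the latter ahead of STING1 (9.08) with no overlap. IKBKE held the third place in A498 add-back (6.99) and the sixth in KO A1331852 (3.51).

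**Figure D3:**
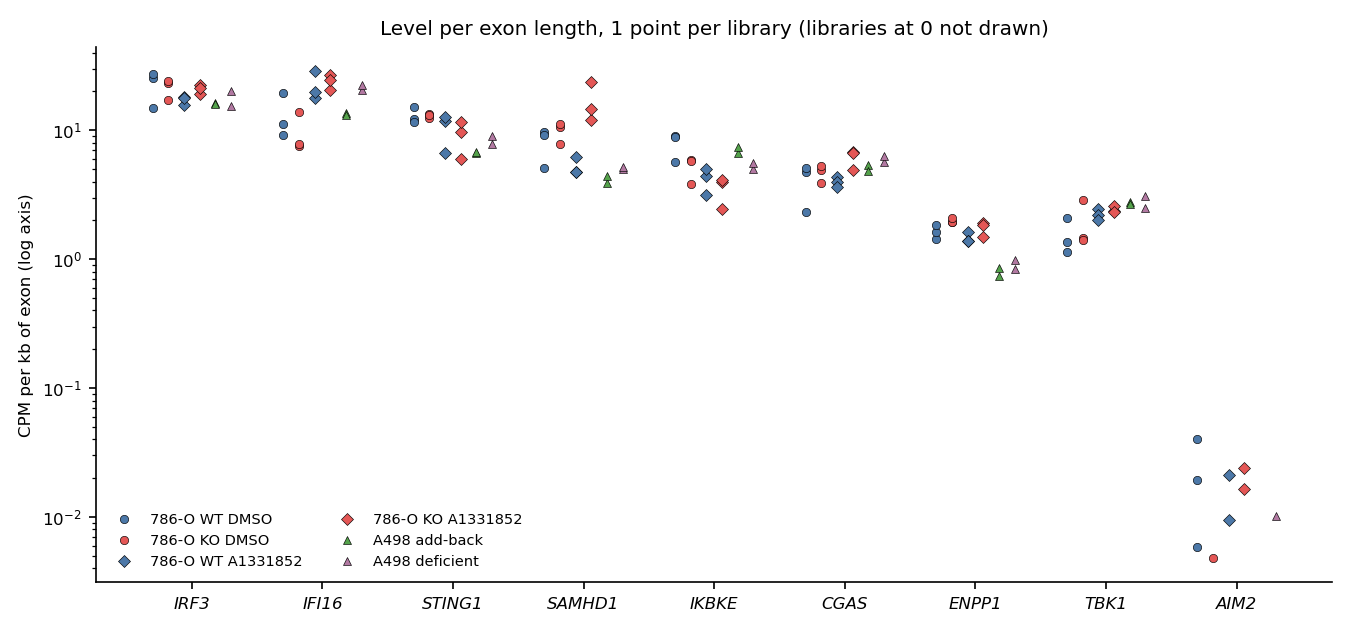
Level per exon length (CPM per kilobase, log axis) of 9 genes, with 1 point per library; colour and shape give the group and libraries at 0 are not drawn. IRF3 is first or second by group mean in every group, IFI16 is so in all but KO DMSO, where it is at 9.77 and below STING1 (12.9), TBK1 and ENPP1 are the lowest of the 8 tested genes, and AIM2 is near the detection floor.

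Changes were tested with edgeR's quasi-likelihood test, with batch as a term in 786-O, and p was adjusted by Benjamini-Hochberg across the whole table. An adjusted p under 0.05 is called here a rise or a fall. Changes are log2 fold changes ± SE. TREX1 and AIM2 did not pass the filter on low counts, which leaves 8 of the 10 genes. The comparisons within 786-O share groups, so their values are not independent of each other.

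The first comparison asked what differed between KO and WT 786-O cells in vehicle. None of the 8 genes rose or fell by edgeR, 4 had an unadjusted p under 0.05, and DESeq2 called 1 (IKBKE). Over all 16260 genes tested 18.5% were called, 8.29% higher and 10.2% lower. CGAS, the DNA sensor gene, changed by 0.26 ± 0.17 (adjusted p = 0.332, edgeR) without passing, and STING1 had 0.01 ± 0.25 (0.982). The largest change was that of the kinase gene IKBKE, -0.60 ± 0.20 (adjusted p = 0.0566, edgeR), with 3 of 3 KO libraries below the WT libraries of their batch. IFI16 followed at -0.42 ± 0.17 (adjusted p = 0.112), then SAMHD1 at 0.35 ± 0.21 (0.295), ENPP1 at 0.30 ± 0.14 (0.15), TBK1 at 0.29 ± 0.13 (0.138) and IRF3 at -0.03 ± 0.12 (0.896).

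With the replicate number as a block, which pairs WT and KO libraries of the same number, IKBKE (-0.60 ± 0.11, adjusted p = 0.00229, edgeR) and IFI16 (-0.42 ± 0.13, adjusted p = 0.0334) both fell in KO DMSO. Of all genes 28.6% were called in that fit, against these 2 of the 8. Numbers 1 and 2 were not shown to be pairs, which limits every fit with this block. Among the 4 libraries of batch 2 alone, edgeR called 6 of the 8 genes: IKBKE (-0.58), IFI16 (-0.37), ENPP1 (0.40), SAMHD1 (0.24), TBK1 (0.24) and STING1 (0.15). Beside these 6 members, 9276 of all 16658 genes tested (55.7%) were called in that batch. The SE of IKBKE was 0.20 with all libraries and the batch term, 0.11 with the block and 0.07 within batch 2, and that of IFI16 was 0.17, 0.13 and 0.07.

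The second comparison set KO against WT cells under A1331852. SAMHD1 rose in KO against WT cells by 1.68 ± 0.22 (adjusted p = 2.30e-04, edgeR), a fold of 3.21, with 3 of 3 KO libraries above all WT libraries. CGAS rose by 0.62 ± 0.17 (adjusted p = 0.0203, edgeR), also with 3 of 3 libraries above. These were 2 of the 8 genes, both higher. Over all genes 28.2% were called, 13.2% higher and 15% lower.

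The other 6 genes were not called between genotypes under A1331852. IRF3 was nearest, at 0.28 ± 0.12 (adjusted p = 0.0951, edgeR), with groups that did not overlap, and it rose with the replicate block (0.28 ± 0.10, adjusted p = 0.0487, edgeR), a fit in which 3 of the 8 genes and 38.6% of all genes were called. ENPP1 had 0.26 ± 0.14 (adjusted p = 0.197), TBK1 0.13 ± 0.13 (0.482) and IFI16 0.13 ± 0.17 (0.622). STING1 had -0.19 ± 0.25 (0.613) and IKBKE -0.26 ± 0.21 (0.382), the only negative values. The call of CGAS was lost without WT A1331852 replicate 2 (adjusted p = 0.0568, edgeR), KO A1331852 replicate 1 (0.0588) or replicate 2 (0.0654), without replicate 1 of both genotypes (0.0653), and within batch 1 (0.0584), while its log2 change stayed between 0.54 and 0.61 in these fits.

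A1331852 was compared with DMSO in WT cells first. None of the 8 genes rose or fell by edgeR, 1 (CGAS) had an unadjusted p under 0.05, and DESeq2 called 0. Over all genes tested 0.141% were called, 0.0369% higher and 0.105% lower. CGAS had 0.51 ± 0.22 (adjusted p = 0.37, edgeR), IKBKE -0.45 ± 0.25 (0.479), with all A1331852 libraries below all DMSO libraries, and STING1 -0.45 ± 0.30 (0.559). ENPP1 (-0.28 ± 0.17), IFI16 (0.20 ± 0.21), SAMHD1 (-0.12 ± 0.27), IRF3 (0.08 ± 0.14) and TBK1 (-0.01 ± 0.16) had adjusted p from 0.514 to 0.992. Since only 1 DMSO library per genotype shared a batch with the A1331852 libraries, batch and treatment were separated here by few libraries: without the batch term CGAS had -0.03, IRF3 -0.38 and TBK1 0.54.

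In KO cells 3 of the 8 genes rose under A1331852 and none fell. SAMHD1 rose by 1.21 ± 0.27 (adjusted p = 0.0133, edgeR), a fold of 2.32, CGAS by 0.86 ± 0.21 (adjusted p = 0.0214) and IFI16 by 0.75 ± 0.22 (adjusted p = 0.0388). The SAMHD1 and IFI16 groups did not overlap, and those of CGAS overlapped, since the DMSO libraries of batch 2 were higher than that of batch 1. Over all genes 13.5% were called, 6.46% higher and 7.08% lower.

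STING1 was lower in all KO libraries under A1331852, at -0.65 ± 0.30 (adjusted p = 0.178, edgeR), and the value was -0.42 ± 0.15 (adjusted p = 0.107) without replicate 1 of both genotypes, the libraries in which it was lowest. IRF3 had 0.39 ± 0.14 (adjusted p = 0.0921), ENPP1 -0.33 ± 0.17 (0.22), with no overlap, TBK1 -0.17 ± 0.15 (0.512) and IKBKE -0.10 ± 0.25 (0.824). Within batch 1, where a single KO DMSO library stood against the 3 treated ones, the sizes were 1.09 for SAMHD1 (adjusted p = 0.268, edgeR), 0.65 for CGAS (0.373) and 0.79 for IFI16 (0.336), and none was called. The calls of SAMHD1 (0.071) and IFI16 (0.282) were also lost without KO DMSO replicate 3, that of CGAS (0.0549) without KO A1331852 replicate 2, and those of SAMHD1 (0.109) and CGAS (0.358) without the batch term. IFI16 was lost as well without KO A1331852 replicate 2 (0.101) or 3 (0.0556) or KO DMSO replicate 1 (0.0743) or 2 (0.0708).

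Whether KO cells responded differently from WT cells was tested as an interaction. SAMHD1 had the largest difference, 1.33 ± 0.30 (adjusted p = 0.0991, edgeR), and IFI16 followed with 0.55 ± 0.24 (adjusted p = 0.439). No gene of the 8 was called by edgeR, 2 had an unadjusted p under 0.05 and DESeq2 called 1 (SAMHD1, 1.32 ± 0.33, adjusted p = 0.00515). With the replicate block SAMHD1 had 1.29 ± 0.18 (adjusted p = 0.0114, edgeR), in a fit that called 1.81% of all genes. It also passed without WT A1331852 replicate 3 (1.27, adjusted p = 0.0481, edgeR) or KO A1331852 replicate 1 (1.5, adjusted p = 0.0495), and IFI16 passed without WT A1331852 replicate 3 (0.78, adjusted p = 0.0352). For CGAS, STING1, TBK1, IKBKE, IRF3 and ENPP1 the adjusted p ran from 0.547 to 0.957, so the rise of CGAS in KO cells was not shown to differ from its value in WT cells. Over all genes 0.295% were called, 0.203% higher and 0.0923% lower.

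In A498, IFI16 rose in the libraries labelled deficient by 0.66 ± 0.13 (adjusted p = 0.00161, edgeR) and IKBKE fell by 0.43 ± 0.15 (adjusted p = 0.0395, edgeR), with 2 of 2 libraries beyond both add-back libraries in each case. These were 2 of the 8 genes, and over all 15424 genes tested 30.2% were called, 15.1% higher and 15.1% lower. STING1 had 0.30 ± 0.14 (adjusted p = 0.12), SAMHD1 0.28 ± 0.14 (0.145) and CGAS 0.21 ± 0.15 (0.316), each with higher values in 2 of 2 libraries. ENPP1 (0.18 ± 0.18), IRF3 (0.13 ± 0.15) and TBK1 (0.01 ± 0.15) had adjusted p from 0.483 to 0.97. The call of IKBKE was lost with DESeq2 (0.0918), without a filter on low counts (0.105, edgeR) and without add-back replicate 1 (0.16) or 2 (0.365), and that of IFI16 without add-back replicate 2 (0.0534).

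The difference between KO against WT in 786-O DMSO and deficient against add-back in A498 was called for 1 of the 8 genes, IFI16, at -1.12 ± 0.25 (adjusted p = 0.00854, edgeR). IFI16 was lower in KO 786-O, where it was not called on its own, and higher in deficient A498 libraries, and within batch 2 the difference was -1.04 (adjusted p = 1.91e-04), whereas it did not pass without the batch term (-1.13, adjusted p = 0.162) or without add-back replicate 2 (-1.07, adjusted p = 0.0571). The other 7 genes had adjusted p from 0.475 to 0.991, IKBKE among them at -0.20 ± 0.29 (0.733). Over all 17868 genes tested 13.2% were called, 6.12% higher and 7.1% lower. Line, batch 3 and the lack of vehicle in A498 cannot be told apart.

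**Figure D4:**
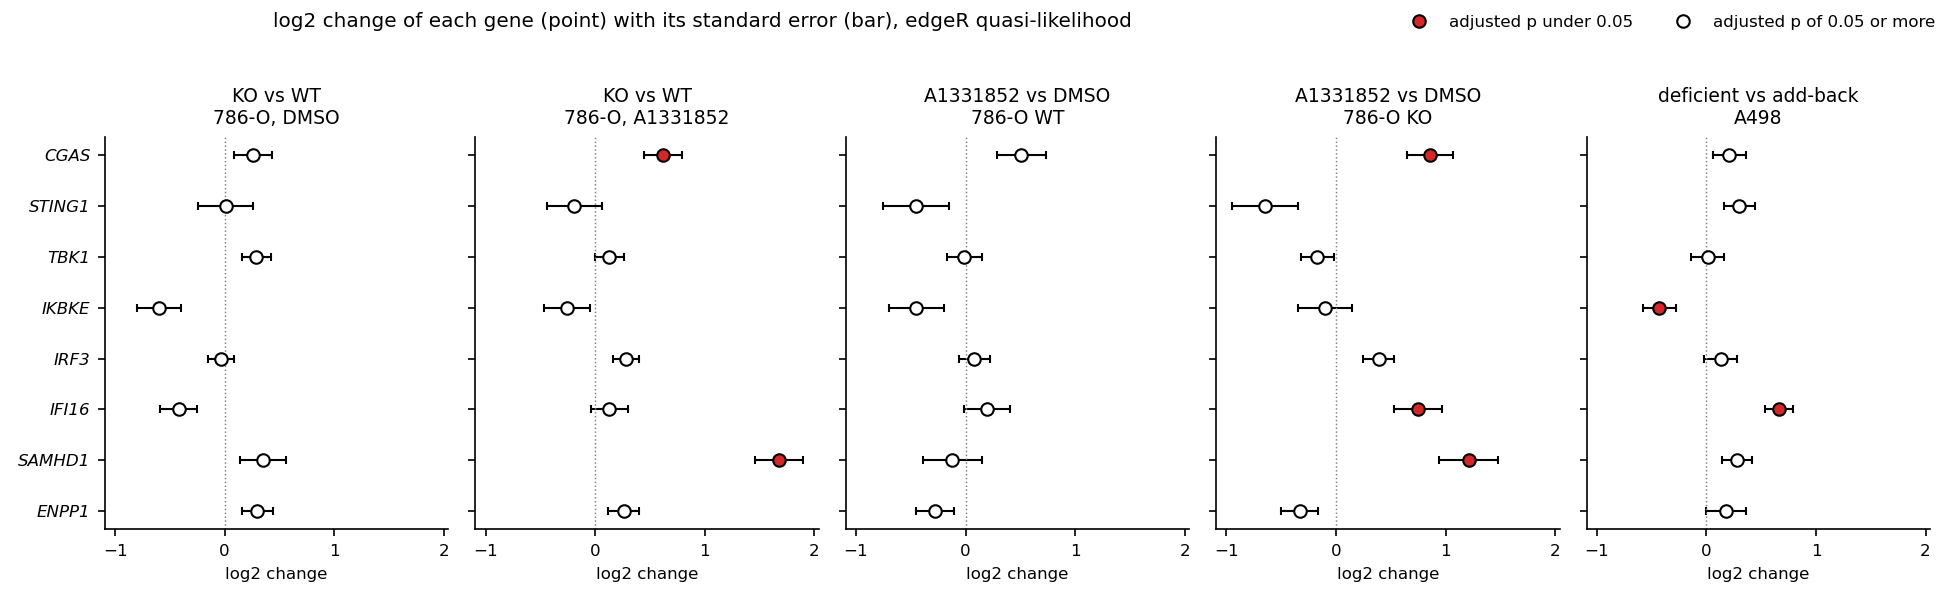
Log2 change (horizontal axis) with its SE (bar) of the 8 tested genes in 5 comparisons; filled points have an adjusted p under 0.05 by edgeR. SAMHD1 (1.68) and CGAS (0.62) are filled for KO against WT under A1331852, these and IFI16 for A1331852 against DMSO in KO cells, and IFI16 and IKBKE in A498.

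The products downstream of IRF3 were followed through a list of 13 early target genes, many of which also respond to interferon itself. IFNB1, the interferon that IRF3 switches on, had 0 to 3 counts per library, with group sums of 1 (WT DMSO), 3 (KO DMSO), 1 (WT A1331852), 6 (KO A1331852), 1 (add-back) and 1 (deficient), and was not tested. IFNL1, another interferon gene of the list, had 4 to 6 counts per library in KO A1331852 and 0 in all other groups. IFNL2 and IFNL3 had group sums of at most 2. None of these was tested either. Under A1331852 all 7 tested genes of the list rose in KO against WT cells, with a median of 2.25 on the log2 scale against -0.01 over all genes. RSAD2, an antiviral radical enzyme, rose by 4.33 ± 0.41 (adjusted p = 2.67e-05, edgeR), OASL by 4.25 ± 0.26 (1.71e-06), IFIT2 by 2.40 ± 0.21 (1.91e-05) and IFIT3 by 2.25 ± 0.19 (1.29e-05).

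In DMSO only OASL (1.44 ± 0.25, adjusted p = 0.00228, edgeR) and RSAD2 (1.40 ± 0.39, adjusted p = 0.0268) of the 7 rose in KO cells, and the list median was 0.02 against -0.02 over all genes; the count ran from 0 without the batch term to 6 within batch 2. None of the 7 rose or fell by A1331852 in WT cells by edgeR (4 had an unadjusted p under 0.05, DESeq2 called 1), with a median of 0.66. All 7 rose in KO cells under A1331852, with a median of 3.16 against 0.01 over all genes. Of all genes 13.5% were called there, against 28.2% for KO against WT under A1331852 and 18.5% in DMSO. Batch 1 alone holds a single KO DMSO library, whose spread had to be taken to be that of the other groups. For 5 of the 7 the response of KO cells was larger than that of WT cells, among them OASL (2.81 ± 0.35, adjusted p = 0.00736, edgeR), IFIT2 (2.5 ± 0.30, 0.00726) and IFIT3 (2.23 ± 0.26, 0.00726). Of all genes 0.295% were called for this difference. Without KO DMSO replicate 1 or 2, 0 of the 7 passed, and 0 of all genes did.

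A498 deficient libraries had 8 of 9 tested early targets higher, with a median of 1.45 against -0.01 over all genes. OASL rose by 1.96 ± 0.16 (adjusted p = 6.13e-07, edgeR), IFIT2 by 1.51 ± 0.15 (3.43e-06), IFIT1 by 1.49 ± 0.16 (9.19e-06) and IFIT3 by 1.45 ± 0.14 (3.10e-06). The count was 5 without add-back replicate 2. The change with SETD2 status differed between the lines for IFIT1, IFIT2 and IFIT3, with the change in 786-O DMSO minus that in A498 at -1.60 ± 0.31 (adjusted p = 0.00317, edgeR), -1.65 ± 0.30 (0.00234) and -1.46 ± 0.27 (0.00233). The other 6 of the 9 were not called, ISG15 at 0.00 ± 0.34 and CXCL10 at 0.13 ± 0.76 among them. CXCL10 and CXCL11 had 3 and 10 counts over the WT DMSO libraries, were not tested within 786-O and passed the filter through their A498 libraries. Of all genes 30.2% were called in A498 and 13.2% for the difference between lines.

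Around TBK1 and IRF3, 13 adaptors and transcription factors were tested, and IRF7, the interferon-inducible relative of IRF3, stood out. It rose in KO cells by 1.89 ± 0.44 in DMSO (adjusted p = 0.0113, edgeR) and by 2.88 ± 0.46 under A1331852 (8.17e-04), and in A498 deficient libraries by 1.18 ± 0.16 (1.09e-04). IRF7 no longer passed in DMSO when replicate 1 (0.0547) or 3 (0.0643) of WT, or replicate 3 of KO cells (0.0637), was left out. Of the 13, 2 rose and 0 fell in DMSO (TANK, a TBK1 adaptor, by 0.37 ± 0.10), 2 rose and 1 fell under A1331852 (RELA by 0.37 ± 0.12 and the adaptor TAX1BP1 by -0.37 ± 0.11), and 2 rose and 2 fell in A498 (IKBKG by 0.46 ± 0.14, TAX1BP1 by -0.44 ± 0.12, AZI2 by -0.39 ± 0.14). List medians were 0.02, 0.20 and -0.15, against -0.02, -0.01 and -0.01 over all genes. Called in all were 2, 3 and 4 of the 13, against 18.5%, 28.2% and 30.2% of all genes.

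Genes of STING trafficking, modification and turnover moved both ways. Of 20 tested, 2 rose and 6 fell in KO DMSO and 2 rose and 4 fell in KO A1331852, and of 21 tested in A498 3 rose and 2 fell. ZDHHC7, a palmitoyltransferase of STING, fell by 0.74 ± 0.14 in DMSO (adjusted p = 0.00361, edgeR) and by 0.75 ± 0.14 under A1331852 (0.00225). STIM1, a calcium sensor that holds STING in the endoplasmic reticulum, rose by 0.70 ± 0.11 under A1331852 (6.28e-04) and by 0.39 ± 0.13 in A498 (0.0317), and TOLLIP by 0.59 ± 0.12 in both treatments. List medians were -0.14, -0.11 and 0.07, against -0.02, -0.01 and -0.01 over all genes. Called in all were 8 and 6 of 20 and 5 of 21, against 18.5%, 28.2% and 30.2% of all genes.

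Among transporters and hydrolases of cGAMP, GJA1, the connexin of gap junctions through which cGAMP can pass between cells, fell in KO cells, with changes of -2.60 ± 0.43 in DMSO (adjusted p = 0.00154, edgeR) and -1.96 ± 0.41 under A1331852 (0.00397). In DMSO 3 of 8 genes fell and 0 rose, the other 2 being LRRC8C, a subunit of volume-regulated anion channels (-0.75 ± 0.17), and the importer SLC19A1 (-0.61 ± 0.16). In A498 deficient libraries 3 of 9 rose and 0 fell: SMPDL3A, a cGAMP hydrolase, by 1.65 ± 0.21 (5.59e-05), LRRC8D by 0.85 ± 0.14 and GJA1 by 0.41 ± 0.13, the last lost without a filter on low counts (0.0585) or either add-back library. The change in 786-O DMSO minus that in A498 was negative and called for GJA1 (-3.03 ± 0.48, 7.72e-04), LRRC8C, LRRC8D and SMPDL3A of the 9 tested. SLC46A1 was called too, but it had 14 counts in WT DMSO and 1 in KO DMSO, was not tested within 786-O and passed the filter through its A498 libraries. These are differences of changes, not of levels: SMPDL3A was at 20.5 and 21.7 CPM in WT and KO DMSO and at 3.09 and 9.86 CPM in add-back and deficient A498. A1331852 in KO cells raised LRRC8C (1.72 ± 0.21) and SLC19A1 (0.71 ± 0.20), and SMPDL3A (-1.36 ± 0.30) and ABCC1 (-0.78 ± 0.20) fell. These 4 calls numbered 0 within batch 1 and 2 in 7 other alternatives of 13. SMPDL3A, at 21.7 CPM in KO DMSO and 18.5 CPM in KO A1331852, had -0.24 (adjusted p = 0.815, edgeR) without the batch term. List medians were -0.24 in DMSO, 0.01 for KO against WT under A1331852, where 0 rose and 2 fell, 0.22 for A1331852 in KO cells and 0.26 in A498, against -0.02, -0.01, 0.01 and -0.01 over all genes. For KO against WT 3 of 8 were called in DMSO and 2 of 8 under A1331852, against 18.5% and 28.2% of all genes. For A1331852 in KO cells 4 of 8 were called, against 13.5%, and in A498 3 of 9, against 30.2%. The difference between lines had 5 of 9, against 13.2%, with SLC46A1 among the 5 although it passed the filter through A498 alone.

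Of 18 co-sensors and cofactors of cGAS, 0 rose and 2 fell in KO DMSO: MRE11, a nuclease of DNA break repair (-0.61 ± 0.12, adjusted p = 0.00482, edgeR), and PRKDC, the catalytic subunit of the DNA-dependent kinase (-0.65 ± 0.19, 0.0327). Both also fell under A1331852 (-0.82 ± 0.12 and -0.76 ± 0.19), where TRIM14, an interferon-inducible protein that stabilises cGAS, rose by 1.77 ± 0.24 (3.03e-04). In A498 4 of 18 rose and 0 fell, HMGB1 by 0.61 ± 0.11 (9.06e-04) and DDX41 by 0.50 ± 0.12 (0.00808) among them. Nucleases of self nucleic acid gave 0 rises and 1 fall of 8 in KO DMSO, the lysosomal DNASE2 by -0.89 ± 0.18 (0.00567), and 1 rise (RNASEH2A, 1.5 ± 0.5) and 2 falls (DNASE2 by -1.02 ± 0.18, PLD3 by -1.05 ± 0.29) under A1331852, and 1 rise and 1 fall in A498 (RNASEH2B by 0.39 ± 0.14, DNASE1 by -0.84 ± 0.17). Of the partners of AIM2 only 3 of 10 passed the filter in 786-O. IL18, a cytokine released by inflammasomes, rose by 2.00 ± 0.38 under A1331852 in KO cells (0.00695) and, with CASP1 (0.77 ± 0.26), in A498 (0.56 ± 0.16), and GSDMD, the pore protein, fell by 0.32 ± 0.10 in KO against WT under A1331852, a call lost in 7 of 12 alternatives. These 3 lists had 2 of 18, 1 of 8 and 0 of 3 genes called in KO DMSO, against 18.5% of all genes, 3 of 18, 3 of 8 and 1 of 3 under A1331852, against 28.2%, and 4 of 18, 2 of 8 and 2 of 5 in A498, against 30.2%. Their medians were -0.04, 0.04 and -0.47 in KO DMSO, 0.13, 0.26 and -0.25 under A1331852 and 0.26, -0.17 and 0.39 in A498, with -0.02, -0.01 and -0.01 over all genes. PRKDC in DMSO was not called without the batch term or without any single DMSO library (adjusted p from 0.0668 to 0.277, edgeR), and RNASEH2A not without any single A1331852 library (0.0595 to 0.113).

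**Figure D5:**
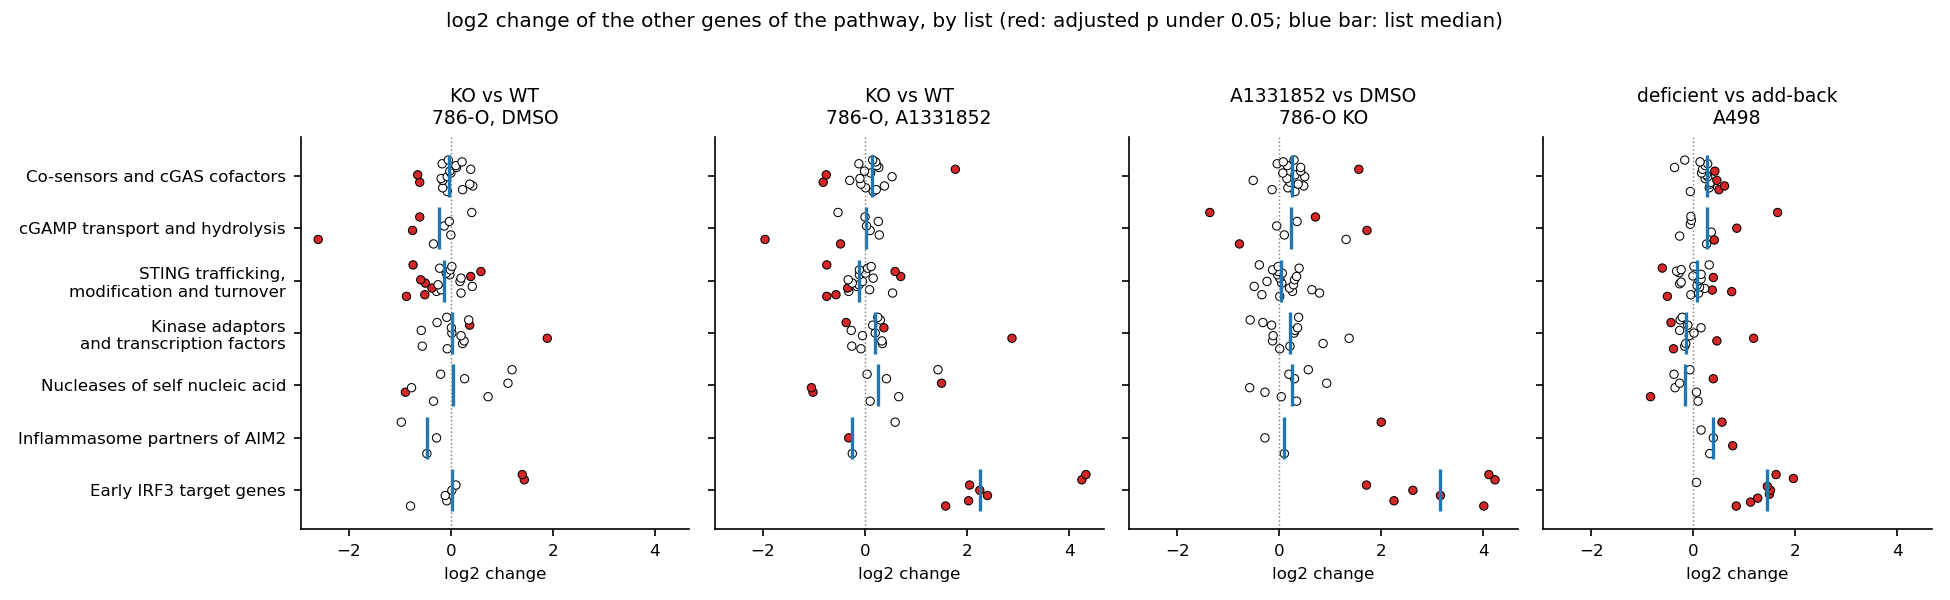
Log2 change (horizontal axis) of each tested gene of 7 pathway lists in 4 comparisons; red points have an adjusted p under 0.05 by edgeR and blue bars are list medians. The early IRF3 target genes lie to the right in 3 of the 4 comparisons, with medians of 2.25, 3.16 and 1.45, and near 0 for KO against WT in DMSO (0.02).

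The genes whose pattern was most like 3 of the members were sought among 16104 genes, by Pearson's correlation of log2 CPM over the 12 libraries of 786-O, which share groups and batches. SAMHD1 was most like USP18 (0.973), TRIM14 (0.972) and OAS2 (0.959). CGAS was most like PA2G4 (0.961), NANS (0.951) and CDCA5 (0.950), and STING1 most like MIR3936HG (0.930), DENND6B (0.929) and CERCAM (0.923). The leading genes of SAMHD1 are known as interferon-inducible. These values describe these libraries only.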

How the data were processed

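RNA (350 ng total, polyA-selected, NEBNext Ultra II) was sequenced in 16 libraries as 150 bp pairs, per the labels' protocols. Per the submitters' processing notes, reads were aligned with STAR to GRCh38 (hg38), and MultiQC 1.7 and DESeq2 were used. Per the file headers, the authors counted fragments on exons by gene name with featureCounts 1.5.0-p3 (paired, reverse-stranded setting 2, GENCODE 41), with no option to count a fragment on several genes. The deposited values are these raw counts.

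From the counts, CPM with TMM factors over all 16 libraries and CPM per kilobase were computed. Tests used edgeR 4.0.16 in R 4.3.3 (TMM, filterByExpr with a minimum count of 10, quasi-likelihood F test, Benjamini-Hochberg over all genes tested, threshold 0.05): the 12 libraries of 786-O together with batch as a term, the 4 of A498 apart, and all 16 for the difference between lines. Alternatives were DESeq2 1.42.0, RLE factors, no filter, no batch term, single batches, a replicate block and each library left out. The scripts were tested on simulated data. Precision comes from the spread between libraries.

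Residuals of same-numbered WT and KO libraries were correlated (0.702 to 0.811 for DMSO, 0.306 to 0.585 for A1331852). Batch accounts for part of this in DMSO, where unlike numbers of batch 2 correlated at 0.674 and 0.726. Under A1331852 unlike numbers 1 and 2 correlated at 0.305 and 0.199, and numbers 1 or 2 with number 3 at -0.47 to -0.345. Numbers 1 and 2 were thus not shown to be pairs. The block on these numbers was run as an alternative only, and the main fits used no pairing.

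The members and lists were chosen with earlier results of these data known. Named were all members, SETD2, IFNB1, per list and comparison at most the 4 called genes with the smallest adjusted p, and the 3 genes most like CGAS, STING1 and SAMHD1. The counts of IFNL1, IFNL2 and IFNL3, the sequences and the sensitivity values shown were chosen after results were seen. Some genes taken by this rule are not reported here.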

Additional observations from a re-analysis of the deposited data

Results flagged for a closer look

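The change of IFI16 with SETD2 status by label had opposite signs in 786-O DMSO and A498, and the difference was itself called. In 786-O the change was not called on its own in DMSO (-0.42 ± 0.17, adjusted p = 0.112, edgeR). Under A1331852 it was 0.13 ± 0.17 (adjusted p = 0.622, edgeR). The difference between lines was not called without the batch term or without add-back replicate 2. KO against WT in 786-O DMSO minus deficient against add-back in A498 was -1.12 ± 0.25 on the log2 scale (adjusted p = 0.00854, edgeR). IFI16 was at 58.8, 49.0 and 103.1 CPM in WT DMSO, 40.2, 41.1 and 73.9 CPM in KO DMSO, 72.6 and 69.1 CPM in A498 add-back and 107.8 and 119.8 CPM in A498 deficient libraries. In the same contrast the difference of changes was also negative and called for IFIT1, IFIT2 and IFIT3, and not for the other 6 of 9 early IRF3 targets tested. Among those 6, CXCL10 and CXCL11 had few counts in 786-O.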

How the results depend on the processing

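The 8 tested genes gave 744 values under the alternatives. Of these, 651 kept their direction and their side of the threshold, 25 passed only under the alternative, 24 no longer passed and 44 changed sign, none of which was called with either setting. The cause of these changes was not tested.

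Without the batch term the response of WT cells to A1331852 changed sign for CGAS (-0.03), TBK1 (0.54) and IRF3 (-0.38), that of KO cells for TBK1 (0.35) and IRF3 (-0.05), and the difference between lines for CGAS (-0.04). TBK1 in WT cells was also 0.01 with DESeq2 and with RLE factors, 0.00 without a filter and 0.09 within batch 1. Within batch 1 SAMHD1 was 0.04 in WT cells, and the difference of responses was -0.14 for CGAS, 0.02 for STING1 and 0.07 for ENPP1. Within batch 2 the difference between lines was -0.14 for CGAS and -0.04 for SAMHD1.

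With each library left out in turn, KO against WT in DMSO ran from -0.05 to 0.16 for STING1 and from -0.15 to 0.03 for IRF3, and under A1331852 from -0.42 to 0.04 for STING1 and from -0.01 to 0.36 for IFI16. A1331852 in WT cells ran from -0.16 to 0.06 for TBK1, -0.14 to 0.14 for IRF3 and -0.03 to 0.36 for IFI16, and in KO cells from -0.22 to 0.10 for IKBKE. The difference of responses ran from -0.46 to 0.01 for STING1 and -0.14 to 0.03 for ENPP1. In A498, TBK1 ran from -0.15 to 0.17 and IRF3 from -0.06 to 0.31, and the difference between lines from -0.16 to 0.13 for CGAS, -0.36 to 0.01 for IRF3, -0.06 to 0.15 for SAMHD1 and -0.02 to 0.22 for ENPP1.

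The number of members called is given with the share of all genes called in the same fit. For KO against WT in DMSO it was 0 (18.5%), against 1 with DESeq2 (22.5%) or no filter (11%), 2 with the replicate block (28.6%) and 6 within batch 2 (55.7%). Under A1331852 it was 2 (28.2%), against 1 within batch 1 (13.7%) or without replicate 1 of both genotypes (21.5%, chosen after seeing the data), 3 with DESeq2 (31.8%) or the block (38.6%) and 1 to 2 with a library left out (20.3% to 32.5%). For A1331852 in WT cells it was 0 (0.141%), and 1 with the block (17.4%). In KO cells it was 3 (13.5%), against 1 without the batch term (9.16%), 0 within batch 1 (0.49%) and 1 to 3 with a library left out (4.68% to 15.5%). For the difference of responses it was 0 (0.295%), against 1 with DESeq2 (2.28%), no filter (1.9%) or the block (1.81%) and 0 to 2 with a library left out (0% to 2.96%). In A498 it was 2 (30.2%), against 1 with DESeq2 (23.2%) or no filter (11.7%) and 0 to 4 with a library left out: 0 without add-back replicate 2 (13.9%), 1 without add-back replicate 1 (14.3%), 3 without deficient replicate 1 (38.7%) and 4 without deficient replicate 2 (35.1%). The difference between lines gave 1 (13.2%), against 0 without the batch term (5.97%) and 0 to 1 with a library left out (6.13% to 10%).

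The replicate numbers did not pair DMSO with A1331852 libraries (residual correlations of -0.052 to 0.098). A block on them gave IKBKE -0.91 (adjusted p = 0.00421, edgeR) in WT and -0.58 (adjusted p = 0.0199) in KO cells. In A498, with 2 pairs, the correlation was 0.198, and the block changed no call there or in the difference between lines.

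For KO against WT, the share of all genes called over the alternatives ran from 9.16% to 55.7% in DMSO. Under A1331852 it ran from 13.7% to 38.6%. For A1331852 against DMSO the share was 0% to 17.4% in WT cells and, batch 1 alone left out, 4.68% to 26.5% in KO cells. It was 0% to 2.96% for the difference of responses, 11.7% to 38.7% in A498 and 5.97% to 33.1% for the difference between lines. Counts of list genes called were computed under the same alternatives, chosen after seeing the data. For KO against WT in DMSO these were 2 co-sensors (0 to 14), 8 trafficking genes (3 to 16), 3 transport genes (1 to 6), 2 adaptors (0 to 10), 1 nuclease (0 to 8), 0 AIM2 partners (0 to 3) and 2 early IRF3 targets (0 to 6). Early IRF3 targets numbered 6 to 10 for KO against WT under A1331852, 0 to 3 for A1331852 in WT cells, 4 to 7 in KO cells, 0 to 7 for the difference of responses, 5 to 8 in A498 and 3 to 5 for the difference between lines. Of 1180 values of called list genes under alternatives, 952 still passed in the same direction and 228 kept the direction without passing. Genes with few counts, such as AIM2, IFNB1, IFNL1 and RNASEH2A, and GJA1 in 786-O, are limited by depth, and TREX1 is not.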
